A study of Mus musculus with 8 samples.

Results

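The insulin-like growth factor (IGF) genes examined here were the ligands Igf1 and Igf2, the receptors Igf1r and Igf2r, and the binding proteins Igfbp2, Igfbp3, Igfbp4, Igfbp5, Igfbp6 and Igfbp7. Their probe sets were taken by gene symbol. The choice of this gene family was made with earlier results of these data known. Together the 10 genes had 28 probe sets among the 45037 on the array that are not array controls, and 1 further probe set that carries both the Igf2r and the Airn symbol was left out. LB-22 is an immortalized line from the mouse embryonic kidney, and the only line in the series. The 4 Wt1 siRNA samples received 25 pmol of siRNA against Wt1, whose product is a DNA-binding zinc finger protein of the developing kidney, and the 4 control siRNA samples received 25 pmol of a scrambled siRNA. Cells of both groups had been expanded at 33 °C with interferon gamma and, from transfection on, were kept at 37 °C without it. They had 6 h with the transfection mix and RNA was taken after 48 h. The medium of both groups contained 10% serum, 5 µg/ml transferrin, 100 nM hydrocortisone, 2 nM triiodothyronine, 2 ng/ml basic FGF, 25 ng/ml prostaglandin E1 and 5 µg/ml insulin, which at high concentration also binds the IGF1 receptor. Whether the 4 samples of a group were separate cultures is not stated, so the p-values rest on a spread between samples that may be technical.

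IGF1 and IGF2 are secreted growth factors that signal through the tyrosine kinase receptor IGF1R to the PI3K-AKT and ERK pathways. IGF2R carries no kinase. It binds IGF2 and delivers it to lysosomes, and it also sorts newly made lysosomal enzymes that bear mannose 6-phosphate. The binding proteins hold the ligands outside the cell, where proteases release them, and several of them also act without a ligand. In earlier work by others, mostly reporter assays on human promoters, WT1 lowered transcription from the IGF2 and IGF1R promoters, and overgrowth by IGF2 is a known feature of Wilms tumour, the childhood kidney tumour in which WT1 was found.

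By their brightest probe sets, 3 of the 6 binding protein genes and 1 of the 2 receptor genes were called, beside 27.8% of all named genes tested, and both growth factor genes gave signals near background. Igfbp3 rose to 249% of control after Wt1 siRNA, Igfbp5 fell to 57.5% and Igfbp6 to 59.9%. Igf2r rose to 134% on the brighter of its probe sets. Neither Igf1r nor Igf2 passed the test on any probe set. Igfbp4 had a positive difference on all 6 of its probe sets, of which 1 passed.

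The values are MAS5 signals, which combine the perfect match and mismatch probes of a probe set into 1 number on a linear scale, and levels of different probe sets are not comparable. The brightest 0.5 of the probe sets by mean log2 signal over all 8 arrays, 22518 with a geometric mean signal of at least 291, were tested with limma on log2 signals. P-values were adjusted by Benjamini-Hochberg over all of them, with a threshold of 0.05. A log2 difference is Wt1 siRNA minus control siRNA with the SE of the fit, and percent of control gives this ratio on the linear scale. Background on an array is the 95th percentile of 27 control probe sets for Bacillus subtilis transcripts, 109.2 to 178.8 across arrays. Wt1 itself had signals of 1679.3, 1531.0, 1316.8 and 1913.9 on the Wt1 siRNA arrays, against 8396.8, 7129.4, 8197.2 and 7423.0 on the control siRNA arrays. It was thus lower on every array that received its siRNA, at 20.5% of control (log2 -2.28 ± 0.11, limma adjusted p = 9.17e-07).

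Across tested probe sets Pearson's r of log2 signals was 0.966 to 0.985 for array pairs within a group and 0.937 to 0.967 for pairs of a Wt1 siRNA and a control siRNA array. Over all tested probe sets limma called 23.1%, with 10.8% higher and 12.3% lower after Wt1 siRNA, and in 27.0% the groups did not overlap. The 2430 higher and 2764 lower probe sets became 2459 and 1369 when each array was centred on its median, which moved the median difference over tested probe sets from -0.01 to 0.10 on the log2 scale. Among markers of the kidney mesenchyme Vim, Col1a1, Tbx18, Osr1 and Six2 were above background on all 8 arrays, whereas Cited1 was above background on none and Sall1 and Foxd1 on 1 array each. Of 11 such genes Osr1 rose, and Tbx18, Col1a1 and the siRNA target Wt1, which is on this list, fell. Their summed signal was 89260 to 127000 after Wt1 siRNA and 94590 to 108500 in control, and most of it was Vim (means of 79250 and 65380). The leukocyte marker Ptprc was above background on no array and the endothelial marker Pecam1 on 1. In contrast, Cd68, Adgre1 and Csf1r of the leukocyte list and Kdr of the endothelial list were above it on all 8. Of 5 endothelial genes 1 was tested and fell (Kdr), with a summed signal of 1697 to 2043 against 2072 to 2890 in control. Of 5 leukocyte genes 1 rose and 2 fell, with sums of 3316 to 3573 against 2951 to 3671. Of 7 podocyte and epithelium genes 2 rose and 4 fell, with sums of 13870 to 14710 against 17400 to 20370, of which most was Krt18 (means of 9160 and 10490). Cdh1 rose to 194% of control and Krt8 to 146%. Epcam fell to 23.3%, Synpo to 36.9%, Podxl to 40.3% and Krt18 to 87.4%. On its other tested probe set Podxl had a log2 difference of -0.11. The part of these marker changes in the results below was not tested, and in bulk RNA fewer cells of a type and less RNA per cell cannot be told apart.

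The regions just before the transcription starts of the 4 genes that changed are shown because WT1 binds DNA, and the bound sites known for it are rich in G and C. They are the 250 bases before the RefSeq start (GRCm38.p6), 5′ to 3′ on the gene's strand, in lower case, with capitals for matches to GCGGGGGCG, a site shared by WT1 and EGR1, to GCGTGGGAG, a WT1 site, or to GGGCGG, the GC box of the Sp1 type, each searched on both strands, and to TATAAA on the gene's strand. All 10 genes had at least 1 such region, 14 in all.
Igf2r, chr17:12769707-12769956, minus strand: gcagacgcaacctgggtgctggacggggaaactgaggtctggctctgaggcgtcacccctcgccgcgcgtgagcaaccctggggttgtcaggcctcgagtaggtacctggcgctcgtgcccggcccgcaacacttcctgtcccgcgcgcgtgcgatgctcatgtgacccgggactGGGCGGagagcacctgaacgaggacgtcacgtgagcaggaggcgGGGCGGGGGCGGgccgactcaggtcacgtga
Igfbp3, chr11:7213924-7214173, minus strand: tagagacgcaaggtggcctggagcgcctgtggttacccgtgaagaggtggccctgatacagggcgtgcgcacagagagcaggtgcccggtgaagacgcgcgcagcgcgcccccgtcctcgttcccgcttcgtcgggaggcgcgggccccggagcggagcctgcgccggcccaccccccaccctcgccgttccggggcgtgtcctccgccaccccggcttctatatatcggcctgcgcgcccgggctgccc
Igfbp5, chr1:72874866-72875115, minus strand: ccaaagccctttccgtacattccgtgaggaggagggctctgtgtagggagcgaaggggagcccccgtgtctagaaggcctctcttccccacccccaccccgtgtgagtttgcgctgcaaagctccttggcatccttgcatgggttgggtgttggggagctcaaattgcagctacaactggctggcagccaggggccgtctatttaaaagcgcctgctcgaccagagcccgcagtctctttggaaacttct
Igfbp6, chr15:102143936-102144185, plus strand: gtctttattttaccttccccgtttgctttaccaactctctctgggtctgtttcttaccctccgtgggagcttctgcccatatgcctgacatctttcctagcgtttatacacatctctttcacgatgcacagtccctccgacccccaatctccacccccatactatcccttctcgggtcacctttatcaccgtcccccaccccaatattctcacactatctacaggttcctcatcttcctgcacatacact
Igf2r was the only gene of the 10 with a match to GCGGGGGCG, which begins 29 bases before the start and overlaps 2 GC boxes. Over 32841 mouse promoter regions of the same length 2.57% held that site, 0.405% held GCGTGGGAG, 32.7% held a GC box and 7.59% held TATAAA. No region of the 10 genes held GCGTGGGAG. Igfbp4 held TATAAA, 28 bases before its start, and the regions of Igfbp3, Igfbp5 and Igfbp6 held none of the 4 motifs. The G and C content was 69.2% for Igf2r, 73.2% for Igfbp3, 58.8% for Igfbp5 and 49.6% for Igfbp6, with a median of 52.4% over all regions. Genes that were not called by their brightest probe set ranged widely, with 77.6% for Igf1r, 74.0% for Igfbp7, 69.2% for Igfbp4 and 52.8% for Igf1. The regions of Igfbp2 had 67.2% and 56.4%, and those of Igf2 had 66.0%, 68.8%, 47.6% and 50.8%. GC boxes were found in regions of Igf1r, Igf2, Igf2r, Igfbp2 and Igfbp7. These matches describe letters in a window and say nothing on binding in these cells.

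Of the 28 probe sets 20 were bright enough to be tested and 8 were not, and 9 of the 10 genes had at least 1 tested probe set. Limma called 6 of the 20, 4 higher and 2 lower, and in these 6 and no other of the 28 the groups did not overlap. Over all tested probe sets 23.1% were called, and in 27.0% the groups did not overlap. By the brightest probe set of each gene, 2 genes were higher, 2 lower and 5 did not pass, while Igf1 was not tested. Of all 11263 named genes read this way 13.2% were higher and 14.6% lower. The median log2 difference was 0.22 over the 20 tested probe sets and -0.01 over all tested probe sets. Igf1r and Igfbp4 gave 5 of the 20 each. By the brightest probe set of each gene the median was -0.12 over the 9 tested genes.

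**Figure D1:**
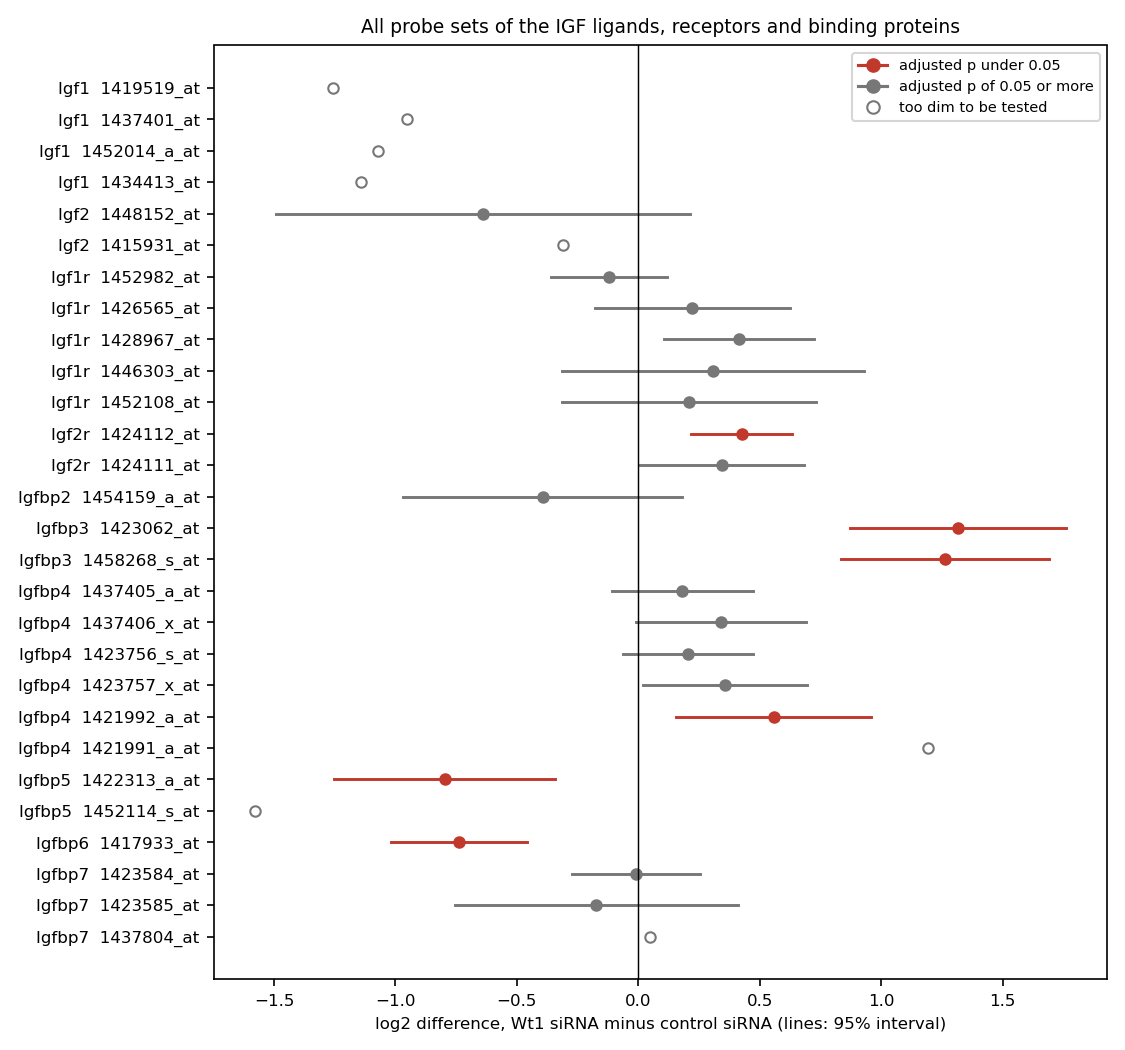
Log2 difference (Wt1 siRNA minus control siRNA) of all 28 probe sets, grouped by gene and ordered by brightness within a gene, with 95% intervals for the 20 tested ones, red where the adjusted p was under 0.05 and grey otherwise, and open circles for the 8 that were too dim to be tested. Both probe sets of Igfbp3 lie furthest to the right among tested ones, and those of Igfbp5 and Igfbp6 lie left of 0.

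The ligand genes gave weak signals. Igf1, which encodes the growth factor induced by growth hormone in many tissues, had 4 probe sets, all too dim to be tested. Its brightest, 1419519_at, read 331.1, 30.0, 159.2 and 172.0 on the Wt1 siRNA arrays, against 357.4, 150.6, 283.6 and 583.8 on the control siRNA arrays. The groups overlapped widely, and the value of 30.0 lies below background. On 1437401_at the Wt1 siRNA arrays read 82.2, 154.6, 107.3 and 134.6 and the control siRNA arrays 133.8, 316.3, 236.6 and 257.4. On that probe set Igf1 was not above background on any Wt1 siRNA array and was above it on 3 of 4 control siRNA arrays. With each Wt1 siRNA value raised to the background of its array, the geometric mean of the control siRNA arrays was 1.59-fold higher. The control siRNA values were kept as measured. The groups nevertheless overlapped there, with control siRNA array 1 below Wt1 siRNA arrays 2 and 4. All 4 probe sets gave a negative difference, -1.26 to -0.95 on the log2 scale. With every probe set of the array tested, the lowest limma adjusted p among them was 0.179 (unadjusted p = 0.0329, 1437401_at), so none passed.

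Igf2, the imprinted growth factor of the fetus, had 1 tested probe set, 1448152_at. It read 102.9, 303.4, 270.8 and 461.4 on the Wt1 siRNA arrays, against 338.2, 376.0, 363.6 and 498.2 on the control siRNA arrays. The groups overlapped and the lowest value, on Wt1 siRNA array 1, lay below background. The log2 difference of -0.64 ± 0.39 did not pass (limma adjusted p = 0.264), with a 95% interval of -1.49 to 0.21 that includes 0. The other Igf2 probe set was above background on none of the 8 arrays. Leaving out 1 array moved the difference to between -0.94 (without Wt1 siRNA array 4) and -0.21 (without Wt1 siRNA array 1), and it passed in none of 15 alternatives.

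Igf1r, the signalling receptor, was measured by 5 probe sets, all tested, and none passed. The brightest, 1452982_at, read 5300.1, 5897.6, 5252.0 and 5532.8 on the Wt1 siRNA arrays, against 5301.7, 6021.6, 7512.2 and 5288.7 on the control siRNA arrays. The groups overlapped, and the high value of control siRNA array 3 was the only one far from the rest. The log2 difference was -0.12 ± 0.11 (95% interval -0.36 to 0.12, limma adjusted p = 0.467), and without control siRNA array 3 it was -0.01. On the other 4 probe sets the difference was positive, 0.21 to 0.42. With 1 array left out, 1446303_at moved from 0.31 to as low as 0.008 (without control siRNA array 3), 1426565_at from 0.22 to as low as 0.12 (without Wt1 siRNA array 4) and 1452108_at from 0.21 to as low as 0.13 (without control siRNA array 3), and none of the 3 passed. The nearest to a call was 1428967_at, with 1257.0, 1065.2, 928.4 and 1223.4 on the Wt1 siRNA arrays and 960.0, 809.8, 798.3 and 775.9 on the control siRNA arrays. These groups overlapped by 1 value on each side, and the difference of 0.42 ± 0.14 missed the threshold (limma adjusted p = 0.0536). It did not pass under 10 of 15 alternatives, with adjusted p up to 0.147, and passed with arrays centred on their medians (0.0317), under quantile normalization (0.0211), with a variance model that has no intensity trend (0.0445) and without Wt1 siRNA array 3 (0.0357) or control siRNA array 1 (0.0439). Averaging the log2 signals of all 5 probe sets gave 0.21 and did not pass (limma adjusted p = 0.183). An exact two-sided permutation test of the per-array difference between 1428967_at and 1452982_at gave p = 0.0857, adjusted to 0.854 over the 23 pairs of tested probe sets that share one of these genes.

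Igf2r, the receptor that clears IGF2 and sorts lysosomal enzymes, rose. On 1424112_at the Wt1 siRNA arrays read 3016.1, 2708.8, 2908.2 and 3205.3, against 2217.3, 2487.6, 1987.9 and 2135.4 on the control siRNA arrays. Every Wt1 siRNA array lay above every control siRNA array. The log2 difference was 0.43 ± 0.10 (95% interval 0.22 to 0.64, limma adjusted p = 0.00798), and it passed under all 16 alternatives run on this probe set, with adjusted p up to 0.0278. The other probe set, 1424111_at, read 2051.8, 2399.5, 2267.3 and 3341.7 on the Wt1 siRNA arrays and 1871.3, 1694.8, 2414.5 and 1880.6 on the control siRNA arrays. There the groups overlapped through control siRNA array 3, and the difference of 0.34 ± 0.16 did not pass (limma adjusted p = 0.137). It passed in 1 of 16 alternatives, without control siRNA array 3 (0.45, adjusted p = 0.0477), and dropped to 0.20 without Wt1 siRNA array 4 (adjusted p = 0.298). The exact permutation test of the difference between the 2 probe sets gave p = 0.714 (adjusted 0.966). Igf2r is the gene whose upstream region above holds the GCGGGGGCG match, and binding of WT1 there was not tested.

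**Figure D2:**
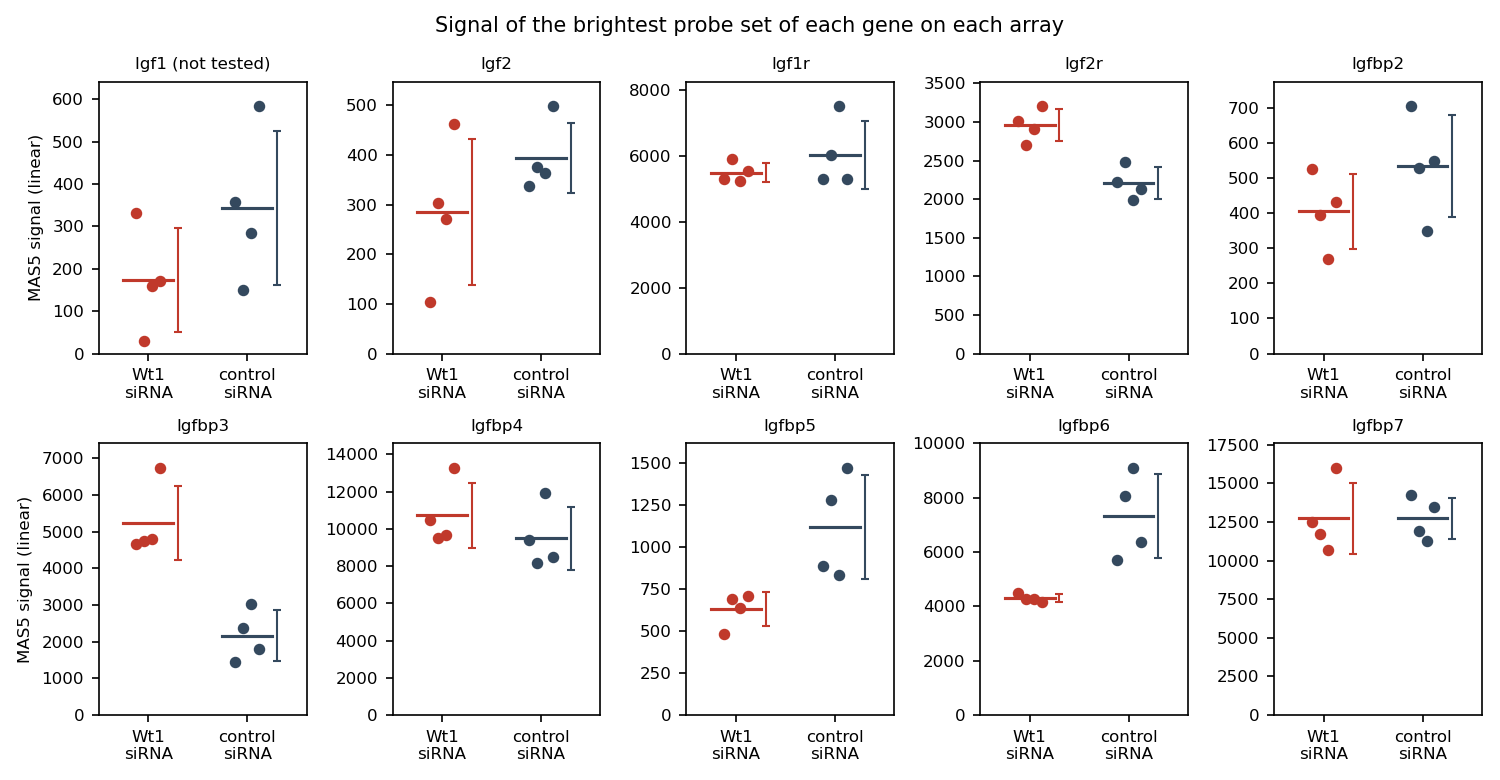
MAS5 signal (linear axes from 0) of the brightest probe set of each of the 10 genes on the 4 Wt1 siRNA arrays (red, left) and the 4 control siRNA arrays (dark, right), with points for arrays, horizontal lines for the mean and bars for the SD. The groups are apart for Igf2r, Igfbp3, Igfbp5 and Igfbp6 and overlap for the other 6 genes.

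Igfbp3, the main carrier of IGFs in serum and a protein that also restrains growth in many cell types, gave the largest difference among the tested probe sets of the 10 genes. On 1423062_at the Wt1 siRNA arrays read 4660.5, 4748.0, 4807.2 and 6741.7, against 1445.6, 2373.6, 3039.3 and 1788.6 on the control siRNA arrays. The groups were far apart, with Wt1 siRNA array 4 standing above the other 3 of its group. The means were 5239 ± 1003 after Wt1 siRNA and 2162 ± 699 in control (SD, n = 4 each), and the log2 difference was 1.32 ± 0.20 (95% interval 0.87 to 1.76, limma adjusted p = 0.000852). The second probe set, 1458268_s_at, read 4280.8, 4104.6, 4581.1 and 5611.0 after Wt1 siRNA, against 1508.2, 2494.6, 2575.7 and 1406.4 in control. Its difference was 1.26 ± 0.20 (limma adjusted p = 0.000833), and the order of the arrays was much the same on both. With 1 array left out at a time the difference on 1423062_at ran from 1.142 to 1.499, and both probe sets passed under all 16 alternatives.

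Igfbp5 and Igfbp6 went the other way. Igfbp5 encodes a binding protein that attaches to the extracellular matrix, and its only tested probe set, 1422313_a_at, read 482.0, 692.5, 637.5 and 709.9 on the Wt1 siRNA arrays, against 884.0, 1279.5, 829.7 and 1470.4 on the control siRNA arrays. The groups did not overlap, and the control siRNA values spread more widely (1116 ± 310) than those after Wt1 siRNA (630.5 ± 103.7; SD, n = 4 each). The log2 difference was -0.80 ± 0.21 (95% interval -1.25 to -0.34, limma adjusted p = 0.0172). The call was lost without Wt1 siRNA array 1 (adjusted p = 0.0516), control siRNA array 2 (0.0541) or control siRNA array 4 (0.0569), with differences of -0.67, -0.72 and -0.65. The dim probe set 1452114_s_at was above background on none of the Wt1 siRNA arrays and on 3 of 4 control siRNA arrays. Its groups overlapped, with control siRNA array 1 (27.0) below Wt1 siRNA arrays 1 (67.2), 2 (110.0) and 4 (43.5). With every probe set of the array tested, its limma adjusted p was 0.338.

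Igfbp6, whose product prefers IGF2 over IGF1, had 1 probe set. It read 4496.1, 4282.0, 4285.7 and 4176.5 on the Wt1 siRNA arrays, against 5718.2, 8071.0, 9100.6 and 6358.3 on the control siRNA arrays. The Wt1 siRNA arrays lay close together and all below the lowest control siRNA array. Group means were 4310 ± 134 and 7312 ± 1552 (SD, n = 4 each), and the log2 difference was -0.74 ± 0.13 (95% interval -1.02 to -0.46, limma adjusted p = 0.00173), called under all 16 alternatives with adjusted p up to 0.0211.

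Igfbp4, which encodes an inhibitory binding protein cleaved by the protease PAPP-A, was measured by 6 probe sets, of which those ending in _x_at hold probes that can bind other transcripts too. On all 6 the difference was positive, 0.18 to 0.56 on the 5 tested ones. The brightest, 1437405_a_at, read 10491.2, 9505.6, 9677.6 and 13283.4 after Wt1 siRNA, against 9412.9, 8141.8, 11917.8 and 8504.1 in control. These values overlapped and the difference of 0.18 ± 0.13 did not pass (95% interval -0.11 to 0.47, limma adjusted p = 0.361). Without Wt1 siRNA array 4 it was 0.07, and that of 1423757_x_at was 0.18 in place of 0.36. Only 1421992_a_at passed, with 2386.5, 2079.6, 2071.7 and 3995.3 after Wt1 siRNA against 1672.6, 1761.0, 1590.2 and 1866.0 in control, a difference of 0.56 ± 0.18 (limma adjusted p = 0.0473). Its groups did not overlap, but Wt1 siRNA array 4 lay well above the rest, and without that array the difference was 0.34. This call was lost without the signal filter (0.0821), without the intensity trend (0.0858) and without Wt1 siRNA array 1 (0.0781) or control siRNA arrays 1 (0.0931), 2 (0.0852), 3 (0.0763) or 4 (0.0742). Without control siRNA array 3, which was the highest control array on 3 of these probe sets, 1423756_s_at (0.33, adjusted p = 0.0177) and 1437406_x_at (0.53, adjusted p = 0.00144) passed. Averaging all 6 probe sets gave 0.47 (limma adjusted p = 0.0357), which takes in 1421991_a_at, too dim to be tested by itself, with a difference of 1.19 and a signal of 959.5 on Wt1 siRNA array 4 against 215.1 to 330.4 on the other arrays of that group.

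The remaining binding protein genes did not pass. Igfbp2, which encodes a binding protein with an integrin-binding sequence, read 526.2, 394.8, 270.1 and 431.8 after Wt1 siRNA, against 706.0, 530.9, 349.8 and 551.0 in control. The groups overlapped, and the difference was -0.39 ± 0.26 (95% interval -0.97 to 0.18, limma adjusted p = 0.309). With 1 array left out it ran from -0.58 (without control siRNA array 3) to -0.21 (without Wt1 siRNA array 3), and without control siRNA array 1 it was -0.25. Igfbp7, whose product binds IGFs weakly and is secreted into the matrix, read 12521.2, 11713.9, 10692.5 and 16007.0 after Wt1 siRNA on its brightest probe set, against 14213.3, 11942.2, 11292.6 and 13463.7 in control. The group means were equal at this precision, 12730 ± 2307 and 12730 ± 1345 (SD, n = 4 each), with a difference of -0.01 ± 0.12 and an interval of -0.27 to 0.25. Its sign changed between alternatives and it never passed. The exact permutation test found no unequal change in the 23 pairs of probe sets of 1 gene at an unadjusted p under 0.05, where 4 against 4 arrays can reach 0.0286. Adjusted over 23 pairs, 1 unequal pair alone could not pass, so that the adjusted values show little.

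For each of the 4 genes called by its brightest probe set, the 3 named genes with the most similar profile were found by the Euclidean distance between log2 signals over the 8 arrays, each centred on its own mean. For Igfbp3 these were Frat2 (distance 0.61, log2 difference 1.11), Smarcd1 (0.74, 1.14) and Il15ra (0.74, 1.13). For Igfbp5 they were Kif17 (0.45, -0.79), Frmd5 (0.47, -0.65) and Mrnip (0.51, -0.77). Igfbp6 was closest to Crip1 (0.24, -0.83), Neo1 (0.30, -0.73) and the collagen gene Col3a1 (0.31, -0.72). Igf2r was closest to Fam160b1 (0.18, 0.45), the kinase gene Mapk9 (0.19, 0.35) and Ranbp9 (0.20, 0.44). Pearson's r over the 8 arrays was 0.931 to 0.985 for these 12 genes, and the shared difference between the groups enters each of these values.

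Other genes of the pathway were read from lists by the brightest probe set of each gene, against the 27.8% called over all named genes. They are described by counts without a test of the list. The mannose 6-phosphate route, on which IGF2R works, held some of the larger changes. Of 12 tested genes 3 rose, 3 fell and 6 did not pass, with a median difference of 0.14. M6pr, which encodes the smaller, cation-dependent receptor for the same sugar mark, read 7090.3, 6599.0, 7450.3 and 6914.3 on the Wt1 siRNA arrays, against 14452.7, 15447.1, 16510.6 and 15345.3 on the control siRNA arrays. It fell to 45.4% of control (log2 -1.14 ± 0.07, limma adjusted p = 2.17e-06), with groups far apart and -0.86 on its other tested probe set. Gnptab, which encodes a subunit of the enzyme that attaches the mark, read 1612.0, 1759.4, 1736.2 and 1483.3 after Wt1 siRNA, against 2986.5, 2943.0, 3239.7 and 3193.4 in control. It fell to 53.2% (-0.91 ± 0.09, limma adjusted p = 4.36e-05), with -0.73 and -0.63 on its other 2 tested probe sets.

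Vps26a, a subunit of the retromer that returns IGF2R from endosomes, rose to 163% (0.70 ± 0.09), and Plaur, the urokinase receptor gene whose product binds IGF2R, rose to 142% (0.51 ± 0.09). The retromer genes Vps35 (0.145, limma adjusted p = 0.226) and Vps29 (0.142, limma adjusted p = 0.211) did not pass. M6pr, Gnptab, Vps26a and Plaur passed under all 18 alternatives. The sorting adaptor genes Gga1 (-0.59 ± 0.14) and Gga2 (0.26 ± 0.08) were called in opposite directions. Gga1 was lost with median centring (adjusted p = 0.0518) and when probe sets were averaged (0.551). Gga2 was lost under 9 of 18 alternatives, among them leaving out Wt1 siRNA arrays 1, 2 or 3 or control siRNA arrays 1, 2 or 4, with adjusted p up to 0.11.

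**Figure D3:**
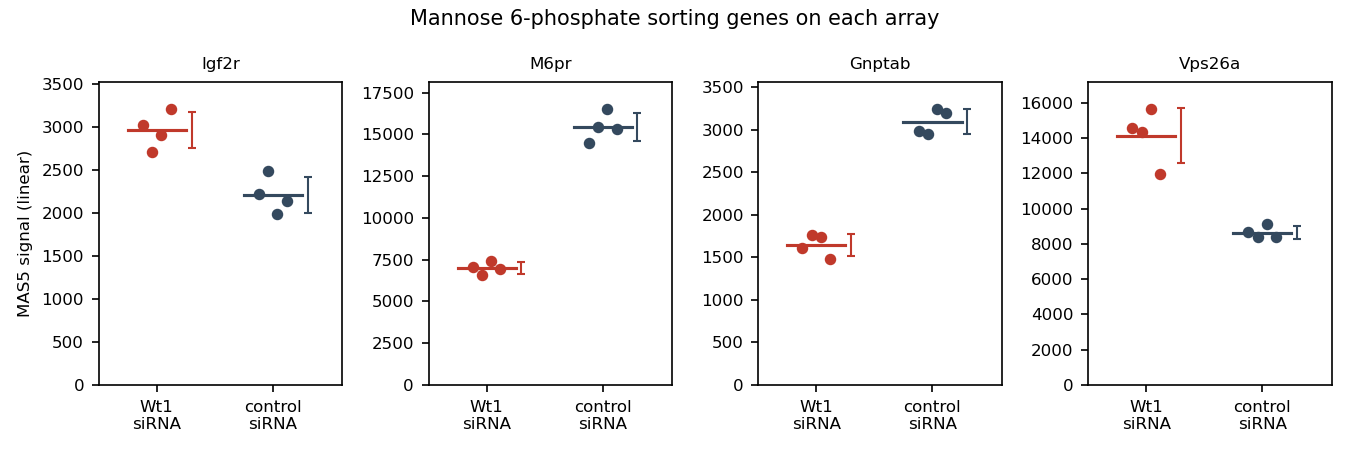
MAS5 signal (linear axes from 0) of Igf2r and of the sorting genes M6pr, Gnptab and Vps26a on the 4 Wt1 siRNA arrays (red, left) and the 4 control siRNA arrays (dark, right), with points for arrays, lines for the mean and bars for the SD. Igf2r and Vps26a are higher and M6pr and Gnptab lower on every Wt1 siRNA array.

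Among 13 genes for proteases of binding proteins and for the stanniocalcins, which inhibit PAPP-A, 7 were tested, 2 rose, 1 fell and 4 did not pass. Mmp3, encoding a metalloproteinase that can cleave IGFBP3, read 2607.9, 3022.4, 2734.5 and 2316.8 after Wt1 siRNA, against 783.2, 787.8, 749.9 and 745.7 in control (1.79 ± 0.11, limma adjusted p = 2.17e-06). Ctsd, encoding cathepsin D, a lysosomal protease that carries the mannose 6-phosphate mark, rose to 147% (0.56 ± 0.08). Mmp2 fell to 76.3% (-0.39 ± 0.07) and was lost with median centring (adjusted p = 0.174). Pappa, whose product cleaves IGFBP4 and IGFBP5, was too dim to be tested, at 84.9 ± 76.5 after Wt1 siRNA and 169.3 ± 98.7 in control (SD, n = 4 each).

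Of 5 tested genes for insulin family receptors and other partners, 2 rose and 3 did not pass. The rises were in genes for RNA-binding proteins that bind Igf2 mRNA. Igf2bp1 read 3112.7, 2482.8, 2739.3 and 2934.1 after Wt1 siRNA, against 2066.7, 1854.9, 1726.2 and 1800.2 in control, a difference of 0.60 ± 0.10 (limma adjusted p = 0.00145) with no overlap. Igf2bp3 was at 0.24 ± 0.07 (limma adjusted p = 0.0367). Its call was lost under 10 of 18 alternatives, among them the averaging of probe sets (0.04, adjusted p = 0.81) and leaving out Wt1 siRNA arrays 1, 2 or 3 or control siRNA arrays 1 or 2 (adjusted p up to 0.103). The insulin receptor gene Insr was at -0.04 ± 0.15 (limma adjusted p = 0.887) on its brightest probe set and at -0.51 on its other tested probe set. Igfbp1 was too dim to be tested.

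Downstream of the receptor, 28 genes of the adaptors and the PI3K-AKT-mTOR pathway were tested, of which 8 rose, 2 fell and 18 did not pass, with a median of 0.02. The 8 became 5 without Wt1 siRNA array 1 and 4 without control siRNA array 4, and also 5 without the signal filter, without the intensity trend and when probe sets were averaged. The 2 became 4 without Wt1 siRNA array 4 and 1 with median centring, with averaging and among the brightest 0.25 of the probe sets. Irs1, the docking protein gene of the IGF1 and insulin receptors, read 4946.1, 4814.9, 5061.6 and 4424.6 after Wt1 siRNA, against 7217.6, 6978.1, 6257.7 and 7122.7 in control. It fell to 69.8% with no overlap (-0.52 ± 0.08, limma adjusted p = 0.000619) and passed under all 18 alternatives, as did the rise of the PI3K regulatory subunit gene Pik3r3 (0.57 ± 0.07). Akt1s1 (0.61 ± 0.11) and the kinase gene Akt1 (0.54 ± 0.10) rose on their brightest probe sets, and averaging ended both calls (adjusted p = 0.373 for Akt1s1 and 0.763 for Akt1). The adaptor gene Shc1 was at 0.52 ± 0.13 and was lost without control siRNA array 4 (adjusted p = 0.0506). Tsc1, whose product restrains mTOR, was at -0.48 ± 0.11 and was lost with median centring (0.113). Among the smaller rises Eif4ebp1 (0.41) held in every alternative that tested it. The calls of Rptor (0.40), Tsc2 (0.34) and Rheb (0.30) were lost without Wt1 siRNA arrays 1 or 3 or control siRNA array 4, and each without others too, with adjusted p up to 0.114, 0.0949 and 0.0916.

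Of 15 tested FOXO factors and targets, which AKT signalling restrains, 3 rose, 2 fell and 10 did not pass, and only 1 rose without Wt1 siRNA arrays 1 or 2 or control siRNA array 4. Sesn1 fell to 51.3% (-0.96 ± 0.12) and the catalase gene Cat rose to 149% (0.57 ± 0.07), both called under every alternative in which they were tested. Cited2 was at -0.58 ± 0.08 and was lost when probe sets were averaged (adjusted p = 0.0687). Foxo3 was at 0.57 ± 0.17, had the opposite sign when probe sets were averaged (-0.20) and was lost without Wt1 siRNA arrays 1 or 2 or control siRNA arrays 1 or 4 (adjusted p up to 0.088). Bcl6 was at 0.46 ± 0.13 and was lost without Wt1 siRNA arrays 1, 2 or 3 or control siRNA arrays 2 or 4 (adjusted p up to 0.0845).

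Growth hormone and STAT5 signalling, which drives Igf1 transcription in liver, had 10 tested genes, of which 2 rose, 4 fell and 4 did not pass. Socs3, a feedback inhibitor of cytokine receptors, fell to 45.2% (-1.14 ± 0.10, limma adjusted p = 2.08e-05) and the transcription factor gene Stat5b to 59.6% (-0.75 ± 0.13). Averaging the probe sets of Stat5b ended its call (adjusted p = 0.22). The growth hormone receptor gene Ghr was at -0.40 ± 0.09 and was lost with median centring (0.174). Sh2b1, an adaptor gene of the same receptors, rose by 0.45 ± 0.11 and passed in all 16 alternatives that tested it. Jak2 (-0.27 ± 0.08) was lost under 9 of 18 alternatives, among them leaving out Wt1 siRNA arrays 1, 2 or 3 or control siRNA arrays 2 or 3 (adjusted p up to 0.115). Ptpn11 (0.26 ± 0.07) was lost with median centring (0.0672), the averaging of probe sets (0.665) and without control siRNA array 2 (0.0546).

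Igf2 and Igf2r are imprinted, and of 13 tested genes of an imprinted list 2 rose, 3 fell and 8 did not pass. Mest, which encodes a membrane protein of the embryonic mesoderm, read 699.7, 754.6, 875.9 and 763.5 after Wt1 siRNA, against 2035.1, 2600.8, 2686.6 and 2114.6 in control. It fell to 32.9% (-1.60 ± 0.13, limma adjusted p = 1.09e-05) with groups far apart. Dlk1, encoding a Notch ligand homologue, rose to 262% (1.39 ± 0.18, and 0.73 when probe sets were averaged), and the proteoglycan gene Dcn fell to 38.9% (-1.36 ± 0.24). All 3 passed in every alternative that tested them. Sgce (-0.58 ± 0.16) was lost with median centring (adjusted p = 0.0868), the averaging of probe sets (0.323) and without Wt1 siRNA array 2 or control siRNA arrays 2 or 4 (up to 0.0672). Gnas (0.33 ± 0.09) was lost without control siRNA array 2 (0.0558) and without the intensity trend (0.0504). Under quantile normalization it was at 0.17 with a limma adjusted p that rounds to 0.05, and the list still held 2 higher genes. Grb10, an imprinted adaptor gene of the IGF1 and insulin receptors, was at -0.03 ± 0.09 (limma adjusted p = 0.823).

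**Figure D4:**
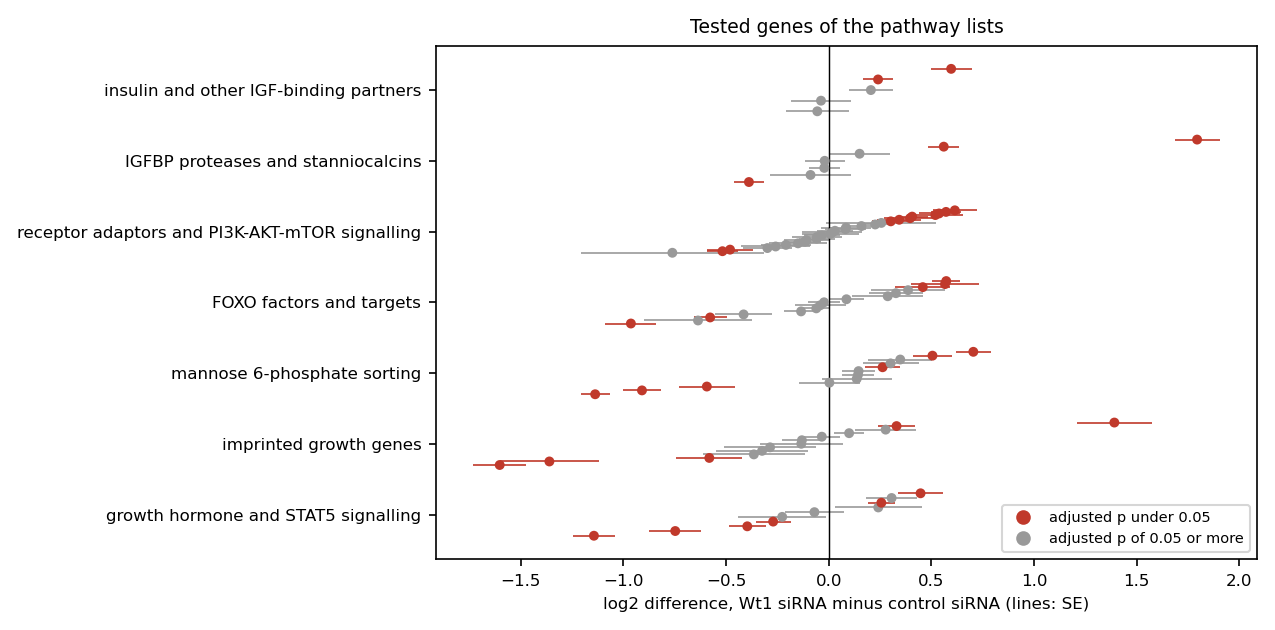
Log2 difference (Wt1 siRNA minus control siRNA) of each tested gene of the 7 pathway lists, read at its brightest probe set, with lines for the SE and red for an adjusted p under 0.05. Called genes lie on both sides of 0 in 6 of the lists, and both called genes of the list of insulin and other partners lie right of 0.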

How the data were processed

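The authors deposited 1 linear intensity per probe set and array. The submitters' processing notes name MAS5 for these values, and its version and settings are not given in the sources used here. All 8 arrays had the same mean signal after 2% of the probe sets were trimmed at each end, so arrays share 1 scale. Scanner files and detection calls were not used here. Probe sets were named from the platform annotation with symbols updated by Entrez ID: 34945 had 1 symbol, 932 several and 9160 none, and those with several or none were not named. The 64 array controls were left out.

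Signals were log2 transformed without further normalization, and the brightest 0.5 of the probe sets were fitted with limma 3.58.1 in R 4.3.3 (lmFit, eBayes with intensity trend, two-sided), all 8 arrays in 1 fit. Genes were counted by their brightest probe set, taken over all 8 arrays. On simulated data for this comparison with 22518 tested probe sets, 200 of them changed, 25% of changes of 0.5 and 58% of changes of 1 on the log2 scale were recovered, and 6 of 89 calls were of unchanged probe sets. In the real comparison 5194 probe sets were called, far more than the 200 changed here, and the adjustment depends on that number. The shares recovered therefore do not give the power of the real comparison. Within-group SDs had a median of 0.191 (log2) among tested and 0.863 among untested probe sets. The genes and lists were chosen with earlier results of these data known. Named are Wt1, the 10 genes with every probe set, up to 6 called genes of each of 7 pathway lists in the order of absolute difference, and the 3 nearest profiles of each called gene. Marker genes and all other list genes in the text were named after their values were seen. List genes without a probe set of their own were not analysed here. The settings changed were quantile normalization, median centring, a block for the replicate number, 64 added before the logarithm, no filter or the brightest 0.25 of probe sets, eBayes without trend or robust, each array left out in turn, and 2 fits over genes. Sequences are from RefSeq (GRCm38.p6). Figures were drawn with matplotlib 3.10.9.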

Additional observations from a re-analysis of the deposited data

Results flagged for a closer look

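In 2 of 58 groups of 4 arrays, 1 array stood further from the other 3 than Dixon's 95% critical value for 4 samples allows, where chance alone gives about 1 in 20. On the Igfbp3 probe set 1423062_at, Wt1 siRNA array 4 read 6741.7, with a gap of 0.916 of the group's log2 range. On the Igfbp4 probe set 1437406_x_at, control siRNA array 3 read 10835.1, with a gap of 0.921.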

How the results depend on the processing

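The 10 genes' counts were 4 probe sets higher and 2 lower, and leaving out 1 array gave 3 to 6 higher and 1 to 2 lower. By brightest probe set 2 genes were higher and 2 lower, and 1 to 2 were lower with 1 array left out. Only 1 was lower among the brightest 0.25 of probe sets, by probe set or by gene, and with the mean over probe sets, where Igfbp5 fell below the signal filter. Median centring left 1369 of all tested probe sets lower and 9 list genes lower, against 2764 and 15, while 2459 and 19 were higher. With the replicate number as a block 4 probe sets of these genes were higher and 2 lower, 2 and 2 by gene, and 2133 and 2475 over all tested probe sets. Same-numbered arrays did not deviate together (correlations of -0.062 to 0.082, and 2 of 8 arrays correlated best with their own number), so the numbers were not taken as pairs. The Igfbp7 difference on 1423584_at turned to 0.10 with median centring, and ran from -0.126 to 0.068 with 1 array left out. The mean over probe sets turned Igf1r to 0.21 and Foxo3 to -0.20. The cause of these changes of sign was not tested. Wt1 was at -2.37 to -2.18 in all 18 alternatives. The number of arrays and, for Igf1 and Igf2, a signal near background limit the precision.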

Other observations

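Wt1 siRNA array 4 gave the highest signal of its group on 12 of the 20 tested probe sets of the IGF genes, against 35.4% of all tested probe sets, and the lowest on 1, against 32.0%. Wt1 siRNA array 3 was the lowest of its group on 10 of the 20, against 24.9% of all tested probe sets. Probe sets of 1 gene share its transcripts, so these counts are not independent. In control, array 3 was the highest of its group on 8 of the 20 (29.9% of all) and the lowest on 7 (35.4% of all).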
